A study of Mus musculus with 6 samples.

Results

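The genes described here are 10 genes of MHC antigen presentation, taken by symbol from the 20173 genes of a bulk RNA-Seq count table: H2-K1, H2-D1, B2m, Tap1, Tap2, Tapbp, Psmb8, Psmb9, Cd74 and H2-Ab1. All 10 symbols were in the table, and the rule that picks them uses symbols and no measured value. The list itself was drawn up with earlier results of these data known. The libraries came from sympathetic chains of 3-week-old male mice on a C57BL/6J background, cultured for 4 to 5 days in neuronal medium with B27. Of the 6 libraries, 3 were from Slit2fl/fl mice (labelled SLIT2f/f), whose Slit2 alleles are floxed and which carry no Cre, and 3 were from Slit2th mice (labelled SLIT2-knockout), which carry the same floxed alleles and Cre recombinase driven by the Th promoter. The Th promoter acts in catecholaminergic cells, so the deletion is not aimed at the glia, fibroblasts or immune cells of a culture. No Cre-only group was sequenced, and whether a library was 1 mouse or a pool is not stated, so the p-values measure the spread between these libraries. The labels give the cell type as neuron, while the study's isolation method also names dorsal root neurons.

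MHC class I molecules show peptides from inside the cell to CD8 T cells and are made by nearly all nucleated cells, usually at low levels in neurons. A heavy chain (H2-K1 or H2-D1 in the mouse) pairs with the light chain beta-2-microglobulin (B2m). Peptides are cut by the proteasome, in which interferon gamma exchanges constitutive catalytic subunits for the immunoproteasome subunits Psmb8, Psmb9 and Psmb10, then carried into the endoplasmic reticulum by the Tap1-Tap2 transporter and loaded with the help of tapasin (Tapbp). MHC class II molecules, here H2-Ab1 and the invariant chain Cd74, show peptides from outside the cell to CD4 T cells and are mainly made by dendritic cells, macrophages and B cells.

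The promoters of H2-K1, H2-D1 and B2m are shown because these 3 genes encode the class I molecule itself. Sequences are from RefSeq on GRCm38.p6, 5′ to 3′ on the strand of the gene, and 7 of the 10 genes had an entry (not Tap2, Cd74 or H2-Ab1). Capitals mark, on either strand, an interferon-stimulated response element core (GAA or GAAA, then any 2 bases and GAAA), a kappa B motif (GGG, any 2 bases, TT, any base, CC), an X2 box core (TGACG) and a Y box (ATTGG).
H2-K1, chr17:34000359-34000458, minus strand: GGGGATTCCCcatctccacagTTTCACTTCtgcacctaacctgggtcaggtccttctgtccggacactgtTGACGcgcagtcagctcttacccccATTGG
B2m, chr2:122147548-122147638, plus strand: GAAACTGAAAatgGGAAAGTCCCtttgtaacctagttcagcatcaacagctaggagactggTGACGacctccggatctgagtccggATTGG
H2-D1, chr17:35262993-35263022, plus strand: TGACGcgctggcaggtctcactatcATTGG
In all 3 genes the X2 core was followed by a Y box after exactly 20 bases. Counted on both strands of every promoter window in the table, this spacing occurred in 31 of 32851 windows (0.0944%), in 27 genes that also include the class I gene H2-M3. The spacing was chosen after these promoters were read, and it was not in the windows of Tap1, Tapbp, Psmb8 or Psmb9. The shorter response element core stood in the windows of H2-K1 and H2-D1 (7.52% of all windows) and the longer one in that of B2m (3.44%), and the kappa B motif stood in all 3 (4.79%). The X2 core alone was in 20.8% and the Y box alone in 37.4% of all windows. A match is a run of letters and not a measured site.

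Total counts were 1255939 to 3155406 per library, so that 3 counts, taken as the floor of detection, correspond to 0.951 to 2.39 CPM (read counts scaled to a common library total). Replicate 1 of each genotype stood apart: across tested genes, its log2 CPM had a Pearson correlation of 0.833 to 0.859 with the other replicates of its group, against 0.925 (Slit2fl/fl) and 0.956 (Slit2th) between replicates 2 and 3. The targeted gene Slit2 stood at 47.7 ± 6.33 CPM in the Slit2fl/fl libraries and 13.9 ± 2.12 CPM in Slit2th (SD, n = 3 each), with no overlap. Among all tested genes, 9.74% had every Slit2th library below. The log2 fold change of Slit2, -1.78, did not reach an adjusted p under 0.05 by edgeR's quasi-likelihood test, DESeq2 (0.0537) or edgeR's exact test (0.0837). Without replicate 1 of both genotypes it did (adjusted p = 0.00689 by edgeR), in a fit where 3.29% of 11473 genes passed. The labelled cell type was poorly seen in the markers: Th had 0 counts in all 6 libraries, and the 10 sympathetic neuron markers in the table summed to 106.5 to 337 CPM, against 5079 to 19220 CPM for 10 glia markers. The levels below are therefore those of whole cultures, in which fewer cells of a type and less RNA per cell cannot be told apart.

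Of the 10 genes, 7 reached 1 CPM in at least 3 libraries and entered the quasi-likelihood test of edgeR, among 12152 genes (CPM normalized by TMM). None of the 7 had an adjusted p under 0.05, and neither did any other gene (0%). With DESeq2 0.437% of 7776 genes and with edgeR's exact test 0.14% of genes were below that level, and none of the 7 was among them (DESeq2 gave no adjusted p for Tap1, Tap2 and Psmb8). By edgeR's quasi-likelihood test 1 of the 7, Tapbp, had an unadjusted p under 0.05 with a lower level in Slit2th, and 0 had one with a higher level, where 6.78% of all genes were lower and 3.99% higher at this level. Log2 fold changes were positive for 4 and negative for 3 of the 7, with a median of 0.16 (all tested genes: 47.8% positive, 52.2% negative, median -0.05). With 7 genes, a count of 1 is close to these background shares.

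**Figure D1:**
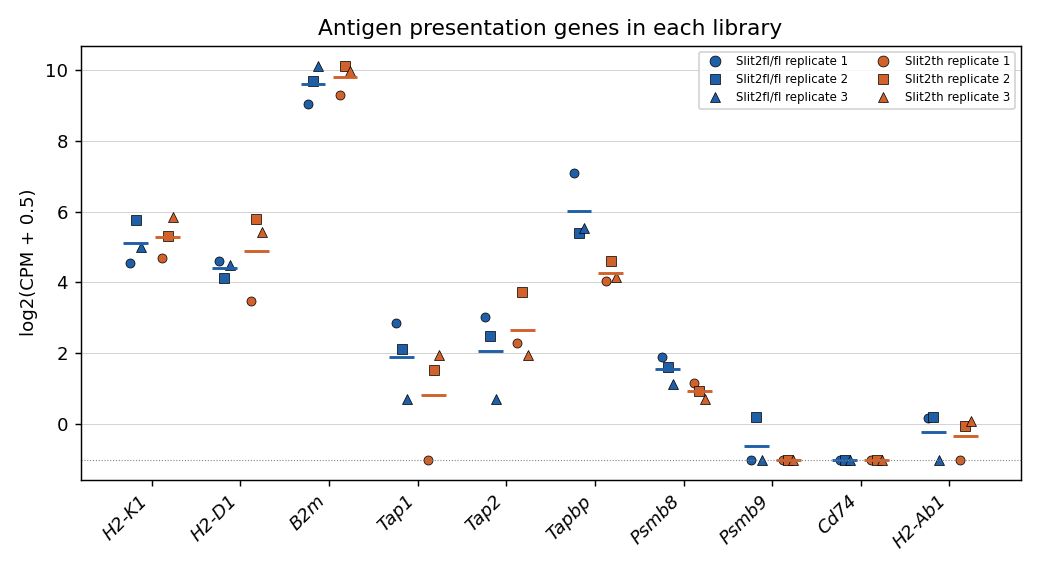
Level of each of the 10 genes as log2(CPM + 0.5), with 1 point per library (colour gives the genotype, shape the replicate number) and a bar at the group mean; the dotted line is a CPM of 0. B2m lies far above the others, Tapbp is the gene whose groups do not overlap, and Psmb9, Cd74 and H2-Ab1 lie at or near 0 in both genotypes.

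The class I light chain was the most abundant transcript of the list and did not differ detectably between genotypes. B2m (ENSMUSG00000060802, chr2:122147686-122153083 on GRCm38) stood at 524, 824 and 1089.9 CPM in Slit2fl/fl replicates 1 to 3 and at 627, 1108 and 996.5 CPM in Slit2th. In each genotype replicate 1 was the lowest library, and the groups overlapped throughout. The group means were 813 ± 283 and 910.2 ± 252 CPM (SD, n = 3 each), which gives a log2 fold change of 0.16 (standard error 0.39, adjusted p = 0.875 by edgeR). B2m alone held 85.9% of all reads counted on the 10 genes, from 72.4% in Slit2fl/fl replicate 1 to 91.5% in Slit2th replicate 1.

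The heavy chains were much lower. H2-K1 (ENSMUSG00000061232, chr17:33996017-34000347) had 22.995, 53.7 and 31.2 CPM in the Slit2fl/fl replicates and 25.5, 39.5 and 56.9 CPM in the Slit2th replicates. The lowest library was a Slit2fl/fl one and the highest a Slit2th one, the others overlapped, and the log2 fold change of 0.19 (standard error 0.46, adjusted p = 0.878 by edgeR) was smaller than its error. H2-D1 (ENSMUSG00000073411, chr17:35262730-35267499) had 23.6, 16.8 and 22.1 CPM in the Slit2fl/fl libraries and 10.6, 55.2 and 42.8 CPM in Slit2th. Slit2th replicates 2 and 3 were above every Slit2fl/fl library, and Slit2th replicate 1 was below every one. Its log2 fold change was 0.80 (standard error 0.56, adjusted p = 0.582 by edgeR), and 1.23 (adjusted p = 0.368) without Slit2th replicate 1. Without replicate 1 of both genotypes it was 1.31 (standard error 0.31) and its adjusted p was 0.0379 by edgeR, in a fit where 3.29% of 11473 genes passed, and H2-D1 was the single one of the 7 genes that did. Without Slit2th replicate 2 it was 0.38 (adjusted p = 0.882) and without replicate 2 of both genotypes 0.17 (adjusted p = 0.952) by edgeR, so its size rests on which libraries enter. The ratio of H2-K1 to H2-D1 reads ranged over libraries from 0.716 in Slit2th replicate 2 to 3.19 in Slit2fl/fl replicate 2. Class I genes are similar in sequence, but 3.1% of the 75-base windows of H2-K1 transcripts and 5.56% of those of H2-D1 occurred in transcripts of another gene, and how reads matching both were counted is not stated.

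Light and heavy chain levels can be compared per length of transcript. Over the 6 libraries B2m stood at 41.5 times the sum of H2-K1 and H2-D1 in CPM per kilobase of merged exon, and at 26.8 times that sum per kilobase of the longest coding transcript. Within a library, the log2 ratio of both heavy chains to B2m, per kilobase of merged exon, was -5.48 ± 0.477 in the Slit2fl/fl libraries and -5.33 ± 0.415 in Slit2th (SD, n = 3 each). The difference of 0.15 was smaller than either spread (two-sided exact permutation test, p = 0.6, where 0.1 is the smallest that 3 libraries against 3 allow, adjusted p = 0.84 over 6 ratios).

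The genes closest to H2-K1 in their pattern, among 9216 other genes with a mean of at least 5 CPM, were Nt5c3, Hsd17b7, Rbm45, Fbxo9 and Uso1. Their centred log2 CPM differed from that of H2-K1 by a root mean square of 0.073 to 0.124 over the 6 libraries. The genes of the list itself were left out of this search, so it does not show whether H2-K1 follows them. None of these 5 is on the other lists of antigen presentation or interferon genes used here. Cd74, which had no reads, had no pattern to match.

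Both subunits of the peptide transporter were near the floor. Tap1 (ENSMUSG00000037321, chr17:34187553-34197225) had 21, 6 and 2 reads in Slit2fl/fl replicates 1 to 3 against 0, 5 and 6 in Slit2th, or 3.91 ± 2.79 against 1.92 ± 1.74 CPM (SD, n = 3 each). Tap2 (ENSMUSG00000024339, chr17:34203527-34216321) had 24, 8 and 2 reads in Slit2fl/fl replicates 1 to 3 against 5, 27 and 6 in Slit2th, or 4.66 ± 3.29 against 6.88 ± 5.20 CPM (SD, n = 3 each). For each gene the libraries of the 2 genotypes overlapped. With so few reads this does not show equal levels, and the size of difference that could have been detected was not tested. The log2 fold changes were -0.95 for Tap1 (standard error 0.95, adjusted p = 0.690) and 0.55 for Tap2 (standard error 0.77, adjusted p = 0.782) in edgeR's fit. The log2 ratio of Tap1 to Tap2 was -0.73 ± 0.194 in the Slit2fl/fl libraries and -2.46 ± 1.76 in Slit2th (SD, n = 3 each), which overlapped (two-sided exact permutation test, p = 0.4, adjusted p = 0.8 over 6 ratios). The difference of -1.74 was -0.97 without Slit2th replicate 1, which had 0 Tap1 reads, and -2.70 without Slit2th replicate 3. Tap1 overlaps exons of Psmb9 on the opposite strand, and Tap2 those of Gm15821 and Gm20496, and the strand setting of the counting is not stated.

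Tapasin had the log2 fold change farthest from 0 of the 7 tested genes when all 6 libraries were used, though not without replicate 1 of both genotypes, where Tap2 (1.39) and H2-D1 (1.31) were farther. Tapbp (ENSMUSG00000024308, chr17:33915899-33929292), which bridges empty class I molecules to the transporter, stood at 135.4, 41.4 and 46.0 CPM in Slit2fl/fl replicates 1 to 3 and at 15.8, 23.8 and 17.5 CPM in Slit2th replicates 1 to 3. The genotypes did not overlap, with the Slit2th libraries the lower ones, as in 9.74% of all tested genes. An exact permutation test (two-sided) gave p = 0.1, its minimum here. The means were 74.3 ± 53.0 and 19.0 ± 4.21 CPM (SD, n = 3 each), which gives a log2 fold change of -1.96 (standard error 0.53, unadjusted p = 0.00490, adjusted p = 0.422 by edgeR). The highest library by far was Slit2fl/fl replicate 1, which was also the deepest. Without that library the log2 fold change was -1.19 (standard error 0.33, adjusted p = 0.641) and without replicate 1 of both genotypes -1.09 (standard error 0.31, adjusted p = 0.0809). In the 9 edgeR fits with libraries left out it stayed between -2.49 and -1.09, and the adjusted p was 0.0809 to 0.821. Tapbp shares exon sequence with Zbtb22 on the same strand and with Gm19412 on the opposite strand, and 18.6% of its 75-base windows occurred in another gene's transcripts. Zbtb22, with 51, 9 and 12 reads in Slit2fl/fl replicates 1 to 3 against 3, 7 and 5 in Slit2th, was also lower in every Slit2th library, and how reads of the overlap were assigned is not stated.

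**Figure D2:**
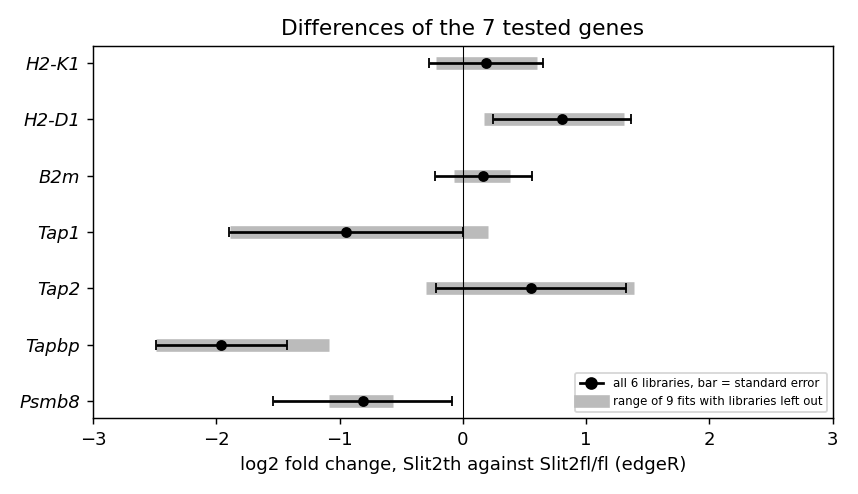
Log2 fold change of Slit2th against Slit2fl/fl for the 7 tested genes, with standard errors from edgeR's fit of all 6 libraries (black) and the range over 9 fits with libraries left out (grey). The ranges of Tapbp (-2.49 to -1.09) and Psmb8 (-1.09 to -0.57) stay below 0 and that of H2-D1 (0.17 to 1.31) above it. Those of H2-K1, B2m, Tap1 and Tap2 cross 0.

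The immunoproteasome transcripts on the list, Psmb8 and Psmb9, were scarce in every culture. Psmb8 (ENSMUSG00000024338, chr17:34197721-34201454), the chymotrypsin-like subunit, had 10, 4 and 3 reads in Slit2fl/fl replicates 1 to 3 against 2, 3 and 2 in Slit2th, or 2.49 ± 0.750 against 1.44 ± 0.317 CPM (SD, n = 3 each). Only Slit2fl/fl replicate 1 and 2 were above the floor of 3 reads, and the log2 fold change of -0.81 (standard error 0.72, adjusted p = 0.654 by edgeR) was little larger than its error. Psmb9 (ENSMUSG00000096727, chr17:34181987-34187764) had 1 read in 6 libraries, in Slit2fl/fl replicate 2, which is 0.0878 CPM over all libraries (exact Poisson 95% interval 0.00222 to 0.489, counting error only). The start of Psmb9 lies 226 bases from that of Tap1 on the opposite strand in RefSeq, and the 2 genes are transcribed away from each other.

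The constitutive subunits that Psmb8 and Psmb9 replace were far more abundant and were spread widely between libraries. Psmb6, the counterpart of Psmb9, stood at 925.5, 95.1 and 85.1 CPM in the Slit2fl/fl libraries and at 141.7, 39.0 and 43.4 CPM in Slit2th. Psmb5, the counterpart of Psmb8, stood at 77.0, 12.3 and 20.4 CPM in the Slit2fl/fl libraries and at 14.96, 3.81 and 6.20 CPM in Slit2th. In both genes replicate 1 was the highest library of its genotype, and Slit2fl/fl replicate 1 was the highest of all. Per kilobase of merged exon, Psmb5 stood at 4.24 to 85.6 CPM over the 6 libraries and Psmb8 at 0.333 to 0.945 CPM, without overlap. Of the 75-base windows of Psmb5 36.8%, and of those of Psmb8 9.97%, occurred in another gene's transcripts, and how such reads were counted is not stated. The log2 fold changes were -2.31 for Psmb6 (standard error 0.96, unadjusted p = 0.0384, adjusted p = 0.454) and -2.20 for Psmb5 (standard error 0.78, unadjusted p = 0.0199, adjusted p = 0.422) by edgeR. Without Slit2fl/fl replicate 1 they were -0.27 and -1.02, with adjusted p-values of 0.920 and 0.705 in the same edgeR test. Without replicate 1 of both genotypes Psmb6 was at -1.14 with an adjusted p of 0.0209 by edgeR.

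The third inducible subunit, Psmb10, which was not on the list of 10, was the most abundant of its kind at 39.3, 5.82 and 13.6 CPM in the Slit2fl/fl libraries and 14.1, 2.38 and 2.25 CPM in Slit2th. The ratio of Psmb10 to Psmb7 was the only one of the 6 ratios tested within a library whose groups did not overlap. It rests on few reads in most libraries. Psmb10 had 123, 9 and 24 reads in Slit2fl/fl replicates 1 to 3 against 16, 5 and 4 in Slit2th. Psmb7 had 93, 8 and 8 reads against 16, 13 and 11. The log2 ratio per kilobase was 1.41, 1.17 and 2.53 in Slit2fl/fl replicates 1 to 3 against 1.005, -0.29 and -0.35 in Slit2th, a difference of -1.58 (two-sided exact permutation test, p = 0.1, its minimum, adjusted p = 0.6 over 6 ratios). The log2 ratio of Psmb8 to Psmb5 differed by 1.24 in the other direction, with overlap (p = 0.3 in the same exact test, adjusted p = 0.8). It was 0.65 without Slit2fl/fl replicate 1 and 1.86 without Slit2fl/fl replicate 2, and Psmb8 was at or under the floor of 3 reads in 4 of the 6 libraries. The ratios of Psmb9 to Psmb6 and of H2-Ab1 to Cd74 rest on genes at the floor in both genotypes and are not interpreted.

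Among genes of the interferon gamma-induced proteasome activator PA28, 1 had every Slit2th library below, as did the related Psme3 and 9.74% of all tested genes. Psme2, its beta chain, was at 68.7, 25.2 and 24.4 CPM in the Slit2fl/fl libraries and 14.96, 19.0 and 20.3 CPM in Slit2th, without overlap. Psme3, which encodes the related nuclear activator, was at 217, 68.6 and 74.9 against 32.6, 61.9 and 45.1 CPM, also without overlap. Their log2 fold changes of -1.13 (standard error 0.50) and -1.37 (standard error 0.52) had unadjusted p-values of 0.0491 and 0.0265 and adjusted p-values of 0.462 and 0.430 by edgeR. Without Slit2fl/fl replicate 1 they were -0.45 and -0.62 (standard errors 0.34 and 0.34). Psme1, the alpha chain, overlapped between genotypes, with 91.7, 58.9 and 43.7 against 52.8, 24.8 and 38.3 CPM.

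**Figure D3:**
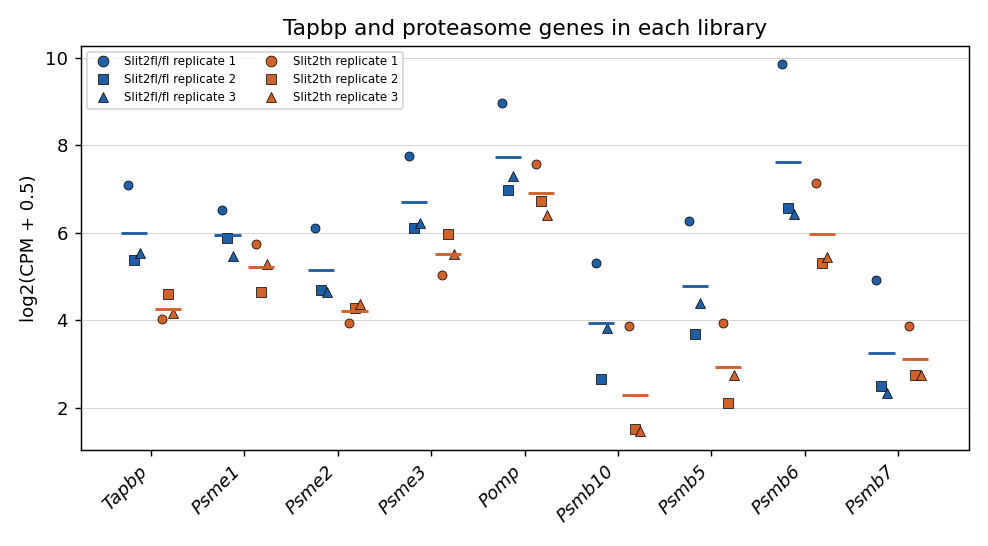
Log2(CPM + 0.5) of Tapbp and 8 proteasome genes in each library (colour gives the genotype, shape the replicate number, bars the group means). Slit2fl/fl replicate 1 (blue circle) is the highest library for all 9 genes, and Tapbp, Psme2 and Psme3 have every Slit2th library below every Slit2fl/fl library.

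MHC class II transcripts were almost absent. Cd74 (ENSMUSG00000024610, on chromosome 18) had 0 reads in each of the 6 libraries, which over their 11393245 reads allows up to 0.263 CPM by the floor of 3 counts and 0.324 CPM by the exact Poisson 95% interval. H2-Ab1 (ENSMUSG00000073421, chr17:34257689-34269419), a class II beta chain, had 2, 1 and 0 reads in Slit2fl/fl replicates 1 to 3 against 0, 1 and 1 in Slit2th, or 0.439 CPM over all libraries (exact Poisson 95% interval 0.142 to 1.02, counting error only). Both were at or under the floor in both genotypes, so no fold is given. Of the other class II genes in the table, H2-Eb1 had 5 reads, all in Slit2th replicate 1, and H2-Ob had none. H2-DMa, which edits class II peptides, had 20, 3 and 1 reads in Slit2fl/fl replicates 1 to 3 against 1, 0 and 1 in Slit2th. H2-DMa overlaps exons of Brd2 on the opposite strand, and the strand setting of the counting is not stated. Over 7 class II genes the libraries held 29, 5 and 2 reads in Slit2fl/fl replicates 1 to 3 against 6, 1 and 2 in Slit2th.

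Macrophage markers were present in the same libraries. The 15 markers listed summed to 36.9 to 128.1 CPM in the Slit2fl/fl libraries and to 130.5 to 672 CPM in Slit2th, where replicate 1 held 206 reads of Aif1 against 0 to 2 in the other libraries. Of the 12 markers tested, 11 had a positive log2 fold change, 6 with an unadjusted p under 0.05 (3.99% of all genes were higher at this level) and none after adjustment by edgeR (median 1.73). With libraries left out this median ranged from 0.06 (9 markers, without Slit2th replicate 1) to 2.30 (12 markers, without Slit2fl/fl replicate 1), and it was 1.37 without replicate 1 of both genotypes (7 of 8 markers positive). In Slit2th replicate 1, 763 macrophage marker reads stood beside 0 reads of Cd74 and 0 of H2-Ab1. Over the 7 class II genes this library had 6 reads, 5 of them of H2-Eb1. Over all libraries there were 1882 macrophage marker reads and 5 reads of the class II genes H2-Ab1 and Cd74 together. The 7 class II genes together had 45 reads. Dendritic cell and lymphocyte markers were at or near 0, with Flt3, Ccr7 and Cd4 at 0 in all libraries. The exception was Zbtb46, with 135 reads in Slit2th replicate 1 and 4 to 16 in the others. In Slit2th replicate 1, the highest library in the macrophage markers, B2m was at 627, H2-K1 at 25.5 and H2-D1 at 10.6 CPM, and the part of macrophages in the class I levels was not tested.

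**Figure D4:**
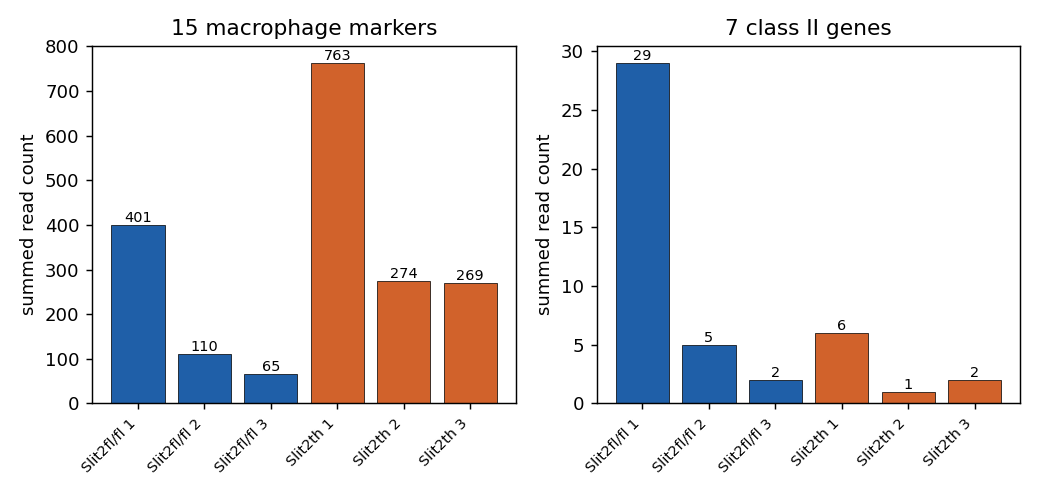
Summed read counts, not normalized, of 15 macrophage markers (left) and 7 class II genes (right) in each library, on linear axes from 0 that differ between the panels. Slit2th replicate 1 has the most macrophage marker reads (763) and 6 class II reads, and Slit2fl/fl replicate 1, the deepest library, has the most class II reads (29).

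Endosomal proteases that prepare class II peptides were above the floor in every library. Ctss (cathepsin S), also made by macrophages, was at 4.15, 5.82 and 4.54 CPM in the Slit2fl/fl libraries and at 45.8, 10.5 and 16.3 CPM in Slit2th, without overlap (8.72% of all genes had every Slit2th library above). Its log2 fold change was 2.30 (standard error 0.63, adjusted p = 0.422 by edgeR) and 1.34 to 2.80 with libraries left out. Its levels were highest in the library with the most macrophage marker reads, and the part of those cells in this difference was not tested. Ctsl (cathepsin L) was at 491.5 to 713 CPM in the Slit2fl/fl libraries and 816 to 1035 CPM in Slit2th, without overlap (log2 fold change 0.56, standard error 0.32, adjusted p = 0.527 by edgeR). Ifi30 (the lysosomal thiol reductase GILT) and Lgmn (legumain) overlapped, with log2 fold changes of -0.87 and 0.42.

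In the wider pathway no gene passed after adjustment either. Of the 12 genes of peptide supply and loading tested, 2 had an unadjusted p under 0.05 in edgeR's test (Psme2 and Psme3, both lower in Slit2th), where 10.8% of all genes did in either direction. The chaperones that fold class I in the endoplasmic reticulum were abundant. Canx (calnexin) was at 356 to 642 CPM in the Slit2fl/fl libraries and 566 to 648 CPM in Slit2th, with overlap. Calr (calreticulin) was at 256 to 509 CPM and 288 to 297 CPM respectively, also with overlap. Pdia3 (ERp57, the partner of tapasin) was at 434, 467 and 458 against 753, 513 and 514 CPM, with every Slit2th library above (log2 fold change 0.39, standard error 0.32, adjusted p = 0.630 by edgeR). Lnpep and Tpp2, a pair of peptidases, were also above in every Slit2th library, with log2 fold changes of 0.60 and 0.76 and adjusted p-values of 0.502 and 0.495 in edgeR's fit. Among all tested genes, 8.72% had every Slit2th library above.

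Among 13 nonclassical and class I-like genes in the table, 7 were tested and 1, H2-T24, had an unadjusted p under 0.05 (10.8% of all genes). It had 2, 0 and 0 reads in Slit2fl/fl replicates 1 to 3 against 2, 5 and 9 in Slit2th. No Slit2fl/fl library was above the floor, and neither was Slit2th replicate 1. The gene reached 1 CPM in the Slit2th libraries alone. It therefore entered the test only through the group where it is higher, and its p is not read as a difference. The class I-like genes Mr1 and Hfe were at 36.1 to 44.8 and 27.1 to 41.4 CPM in the Slit2fl/fl libraries and at 19.4 to 38.3 and 25.5 to 45.1 CPM in Slit2th, and Fcgrt, the neonatal Fc receptor, at 11.6 to 35.8 against 5.28 to 13.8 CPM. All 3 overlapped between genotypes.

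Of the regulators of MHC genes, Nlrc5, the class I transactivator, had 7, 4 and 0 reads in Slit2fl/fl replicates 1 to 3 against 0, 2 and 0 in Slit2th. None of the 13 regulators tested had an unadjusted p under 0.05 in edgeR's test. Creb1, which can bind X2-like boxes, was above in every Slit2th library (31.9 to 48.8 against 62.4 to 68.7 CPM, log2 fold change 0.70, standard error 0.34, adjusted p = 0.481 by edgeR). Such a separation was seen in 8.72% of all tested genes. Rfx5, which binds MHC promoters, was below in every Slit2th library but near 0 throughout, with 4, 1 and 2 reads against 0, 1 and 0, and was not tested by edgeR. Rela, a subunit of NF-kappa B, overlapped between genotypes.

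Interferon-induced genes, many of which share their inducer with class I genes, went both ways. Of 18 tested, 10 lay above 0 on the log2 fold change scale and 8 below (median 0.12), and by edgeR 2 were higher and 1 lower in Slit2th at an unadjusted p under 0.05 (3.99% and 6.78% of all genes). The higher ones were Stat2, at 4.15, 5.82 and 3.97 against 13.2, 14.3 and 11.8 CPM, and Ifit2, which overlapped at 17.2 to 31.8 against 30.8 to 66.5 CPM. The lower one was Igtp, an interferon gamma-inducible GTPase, with 427, 25 and 46 reads in Slit2fl/fl replicates 1 to 3 against 1, 5 and 8 in Slit2th. On the log2 scale it differed by -4.44 (standard error 0.94), and the adjusted p was 0.422 by edgeR's quasi-likelihood test, 0.0125 by its exact test and 6.46e-04 by DESeq2. Without Slit2fl/fl replicate 1 it was -2.93 (adjusted p = 0.523) and without replicate 1 of both genotypes -2.64 (adjusted p = 0.0172) by edgeR. Without a filter on low counts the adjusted p was 0.0256 in the same test. Oasl2 was also lower in every Slit2th library, with 5, 9 and 4 against 1, 1 and 2 reads. Igtp shares exon sequence with Irgm2 on the same strand. The receptor subunit Ifngr1 was lower in every Slit2th library, at 33.0 to 40.3 against 12.3 to 29.3 CPM (log2 fold change -0.68, standard error 0.42, adjusted p = 0.543 by edgeR). A separation in this direction was seen in 9.74% of all tested genes.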

How the data were processed

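Gene-level counts in 6 RNA-Seq libraries were analysed. The authors made TruSeq libraries and aligned the reads to mm10 with HISAT2, per the study's methods; the processing notes of the labels name GRCm39 instead. The deposited values are read counts per gene, whole numbers and not normalized; the counting program, strand setting and annotation release are not given in the sources used here. Positions and lengths come from GENCODE M21 (GRCm38), in which 20159 of 20173 identifiers were found, and promoters from RefSeq (GRCm38.p6). In R 4.3.3, genes that reached a CPM of 1 in 3 or more libraries were scaled by TMM and compared with edgeR 4.0.16 (quasi-likelihood test, no covariates, Benjamini-Hochberg adjustment, threshold 0.05), which was checked on simulated data. The common biological coefficient of variation was 50.4%. Standard errors are the log2 fold change divided by the root of the F statistic. For ratios (0.5 added to each count) and single genes, exact permutation tests (two-sided) were run. Intervals and floors cover counting error only, since reads carry no molecular identifiers.

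The members and lists were chosen with earlier results of these data known. Besides the members, genes are named if among the 3 highest of a list, if they had an unadjusted p under 0.05 or separated the groups, or if closest to H2-K1; Zbtb22 was named as an overlapping gene after its values were seen, and of these genes those that bear on the members are given, and 1 regulator is not reported here. Alternatives were other normalizations, filters and tests (DESeq2 1.42.0, limma-voom 3.58.1, edgeR's exact test), blocking on replicate number, and fits with libraries left out.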

Additional observations from a re-analysis of the deposited data

How the results depend on the processing

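No gene passed an adjusted p under 0.05 in the edgeR test reported (1309 had an unadjusted p under 0.05), or with other normalizations, a CPM of 1 in all libraries or limma-voom. Without a filter 7 genes passed, with DESeq2 34 (0.437% of 7776) and with edgeR's exact test 17 (0.14% of 12152), none of them among the 10 genes. With single libraries or replicate numbers left out, 0 to 377 passed. The median log2 fold change of the tested genes, 0.16, was -0.19 without a filter (9 genes) and -0.30 to 0.38 with libraries left out, so its sign is not fixed. H2-K1 turned to -0.06 without Slit2fl/fl replicate 1, -0.12 without Slit2th replicate 3 and -0.22 without replicate 3. B2m turned to -0.07 without Slit2fl/fl replicate 1 and -0.03 without replicate 2, Tap2 to -0.29 without Slit2th replicate 2 and -0.30 without replicate 2, and Tap1 to 0.20 without replicate 1. The log2 ratio of heavy chains to B2m turned to -0.13 without Slit2fl/fl replicate 3 and -0.02 without Slit2th replicate 3. With libraries left out, log2 fold changes ranged from -0.22 to 0.60 for H2-K1, -0.07 to 0.38 for B2m, -0.30 to 1.39 for Tap2, 0.17 to 1.31 for H2-D1 and -1.89 to 0.20 for Tap1. The causes were not tested. Tapbp, H2-D1 and Psmb8 kept their sign in every setting, and of the 7 genes H2-D1 alone passed anywhere, without replicate 1 of both genotypes.

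The shared replicate numbers do not clearly pair the libraries: same-numbered libraries had correlations of their deviations from the group means of 0.26, 0.206 and 0.0617, and Slit2fl/fl replicate 2 was closer to Slit2th replicate 3 (0.221). When replicate number entered as a block, the adjusted threshold was met by 0 genes, 693 were higher and 921 lower at an unadjusted p under 0.05, and Tapbp had a log2 fold change of -1.73 (adjusted p = 0.235 by edgeR).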

Other observations

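Costimulatory genes, which antigen-presenting cells need beside MHC class II, were also scarce, at 0 to 28 reads over 5 genes per library. Cd86 had 0 reads in all 6 libraries and Cd40 had 1, 0 and 1 in Slit2fl/fl and none in Slit2th. Cd80 was the highest of the 5 in the table, with 3, 4 and 17 reads in Slit2fl/fl and 0, 13 and 11 in Slit2th (log2 fold change 0.03, standard error 1.01, adjusted p = 0.992 by edgeR). Cd274, which encodes the inhibitory ligand PD-L1, had 10 reads in Slit2fl/fl replicate 3 and 0 to 3 in the others.

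The endothelial markers, whose cells usually make much class I, summed to 42.0 to 131.9 CPM in Slit2fl/fl and 49.0 to 58.1 CPM in Slit2th, and the fibroblast markers to 2372 to 3210 CPM and 3261 to 4591 CPM. Of 8 fibroblast markers tested, 7 had a positive log2 fold change (median 0.60), 3 with an unadjusted p under 0.05 (3.99% of all genes were higher at this level) and none after adjustment by edgeR. B2m, at 524 to 1089.9 and 627 to 1108 CPM, overlapped between genotypes, and the part of endothelial cells or fibroblasts in its level was not tested.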
